A study of Mus musculus with 16 samples.

Results

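The nuclear-encoded subunits of the mitochondrial respiratory chain were examined in brain RNA from 16 female mice. Members were taken by gene symbol as the rows for Nduf subunits of the a, b, c, s and v series, Sdha to Sdhd, Uqcr genes, Cox4 to Cox8 genes and Atp5 genes, with symbols containing -ps left out. This gave 89 of the 55487 rows of the count table, of which 82 had enough counts to be tested. Complex I held 38 members, complex II 4, complex III 8, complex IV 21 and complex V, the ATP synthase, 18. Ndufa4 and Ndufa4l2 were placed with complex IV, where the Ndufa4 protein is now known to belong.

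Each of the 4 groups held 4 mice. CETPtg mice carried a transgene for CETP, a human plasma protein that moves cholesteryl esters between lipoproteins and that mice lack. APPtg/CETPtg mice carried in addition human APP751 with the Swedish and Indiana mutations, expressed in neurons from the Thy1 promoter. In both genotypes the mice received either evacetrapib, a CETP inhibitor, at 30 mg per kg of body weight daily by intraperitoneal injection for 11 weeks, or its vehicle of Kolliphor EL and glucose. All groups shared a diet with 1% cholesterol from 11 weeks of age, heterozygous transgenes and a C57BL/6J background, so no group was free of the CETP transgene or of the diet. RNA came from bulk brain, in which fewer cells of a type and less RNA per cell cannot be told apart.

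The respiratory chain sits in the inner mitochondrial membrane. Complex I takes electrons from NADH and complex II from succinate, both pass them through ubiquinone to complex III, and cytochrome c carries them on to complex IV, which reduces oxygen. Complexes I, III and IV pump protons, and ATP synthase lets the protons flow back through a rotating ring of c subunits to make ATP. Most subunits are encoded in the nucleus and imported, while a small core is encoded by mitochondrial DNA, so that building a complex needs both genomes. Neurons depend heavily on this pathway to restore ion gradients after firing.

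Many promoters of these genes are known to carry binding motifs of NRF1, of the ETS factor GABP and of YY1. To show what the members share in sequence, windows of 250 bases before to 50 bases after the transcription start were taken from RefSeq annotation of GRCm38.p6, in which 66 of the 82 tested members had an entry, with 71 windows in all. On either strand, the NRF1 core GCGCATGCG occurred in 8 member windows, or 11.3%, against 1.75% of all 32851 windows and 2.96% of the 16513 windows of tested genes. The YY1 core AAGATGGC occurred in 10 member windows, or 14.1%, against 3.66% of windows of tested genes. The ERR element CAAGGTCA occurred in only 4 member windows, or 5.63%, against 1.17%. The ETS core CCGGAAGT was found in 7.04% and 6.59%, the sequence CCAATC in 19.7% and 19.4%, the GC box GGGCGG in 39.4% and 57.8%, and TATAAA in 9.86% and 7.79%. The NRF1 core can match on both strands at overlapping positions, so windows and not matches were counted, and a match describes letters and not binding.

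The 100 bases before the start of 7 members whose mRNA rose in APPtg/CETPtg mice are given here, because they include each of the first 3 motifs and the abundant member with the largest change, Cox7c, which held no match to any of the 7 motifs. Sequences run 5′ to 3′ on the strand of the gene, and capitals mark the NRF1, ETS or YY1 core or its reverse complement. In Uqcr11 an NRF1 match also runs across the start, beyond the bases shown. Atp5j has a further annotated start, whose window held GC boxes and no YY1 core.
Ndufa11, NRF1 core, chr17:56717662-56717761, plus strand: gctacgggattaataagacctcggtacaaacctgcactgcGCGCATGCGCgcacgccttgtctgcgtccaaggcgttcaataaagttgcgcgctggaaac
Ndufa8, NRF1 core, chr2:36049339-36049438, minus strand: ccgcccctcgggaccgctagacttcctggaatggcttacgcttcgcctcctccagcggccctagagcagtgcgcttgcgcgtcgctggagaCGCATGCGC
Atp5g2, NRF1 core, chr15:102671048-102671147, minus strand: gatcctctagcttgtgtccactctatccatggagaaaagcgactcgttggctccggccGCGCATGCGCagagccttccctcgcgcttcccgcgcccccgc
Uqcr11, ETS core, chr10:80406822-80406921, minus strand: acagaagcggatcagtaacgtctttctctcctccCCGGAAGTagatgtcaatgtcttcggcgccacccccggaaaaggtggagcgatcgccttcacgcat
Atp5h, ETS core, chr11:115419920-115420019, minus strand: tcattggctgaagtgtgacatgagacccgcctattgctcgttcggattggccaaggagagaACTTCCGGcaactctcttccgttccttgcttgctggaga
Atp5j, YY1 core, chr16:84834977-84835076, minus strand: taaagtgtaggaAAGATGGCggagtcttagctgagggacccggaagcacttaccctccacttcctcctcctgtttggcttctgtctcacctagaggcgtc
Cox7c, no match, chr13:86046796-86046895, minus strand: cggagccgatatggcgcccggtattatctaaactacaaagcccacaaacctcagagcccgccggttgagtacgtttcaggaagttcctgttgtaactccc

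The table gave whole-number counts of reads per gene, which summed to 21391335 to 55453789 per mouse. In CETPtg mice the sums ran from 28626139 to 46800787. In APPtg/CETPtg mice they were at most 27398792, except 55453789 in vehicle-treated mouse S8, so depth differed with the genotype. Levels are given as CPM, the count relative to a library size scaled by TMM. Thy1, whose promoter drives the APP transgene, lay between 684 and 807 CPM in CETPtg mice and between 865 and 2063.5 CPM in APPtg/CETPtg mice, without overlap. Subunit mRNAs took 0.935% to 0.994% of the counts in CETPtg mice and 1.03% to 1.10% in APPtg/CETPtg mice. The labels' positions on the index plate put the genotypes in different columns and the treatments in different rows, so that plate and group effects cannot be told apart. In 1 evacetrapib-treated APPtg/CETPtg mouse the summed CPM of 4 pituitary genes reached 851.7, against at most 20.6 in any CETPtg mouse. Of 7 markers of muscle, a tissue that uses some of the isoforms described here, Ckm, Mb and Myh6 had 0 to 7 counts per mouse, while Acta1 had 209 to 745, Myh2 23 to 123, Myh1 11 to 74 and Myh4 8 to 45. Their summed level was 11.9 to 15.6 CPM in CETPtg and 12 to 17.9 CPM in APPtg/CETPtg mice. Of 2 brown fat markers Ucp1 had 0 to 10 counts and Cidea 45 to 168.

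As a group, the nuclear-encoded mRNAs of the respiratory chain were higher in APPtg/CETPtg than in CETPtg brains, in all 5 complexes. A gene was called when edgeR's quasi-likelihood test gave a Benjamini-Hochberg adjusted p of at most 0.05 over the 18609 genes tested and the fold change reached the small minimum that the study used, which no member with such a p missed. Of the 82 members 59 were called, all higher in APPtg/CETPtg mice, against 9.35% of all genes tested that were called higher. The difference was positive in 79 members, with a median log2 fold change of 0.17, while the median over all genes was 0.0046. In 20 members all 8 APPtg/CETPtg mice lay above all 8 CETPtg mice, against 1.74% of all genes, and no member showed the reverse.

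The level of a complex was taken as the mean log2 CPM of its members, relative to the mean of the 16 mice. Over all members it was -0.10 ± 0.02 (SD, n = 4) in CETPtg mice given vehicle, -0.07 ± 0.02 in CETPtg mice given evacetrapib, 0.11 ± 0.05 in vehicle-treated APPtg/CETPtg mice and 0.06 ± 0.04 in evacetrapib-treated APPtg/CETPtg mice. CETPtg mice ranged from -0.12 to -0.04 and APPtg/CETPtg mice from 0.01 to 0.15, without overlap. The difference between genotypes in log2 level was 0.17 for complex I, 0.11 for complex II, 0.14 for complex III, 0.23 for complex IV and 0.16 for complex V, and in none of the 5 complexes did a mouse of one genotype fall within the range of the other.

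**Figure D1:**
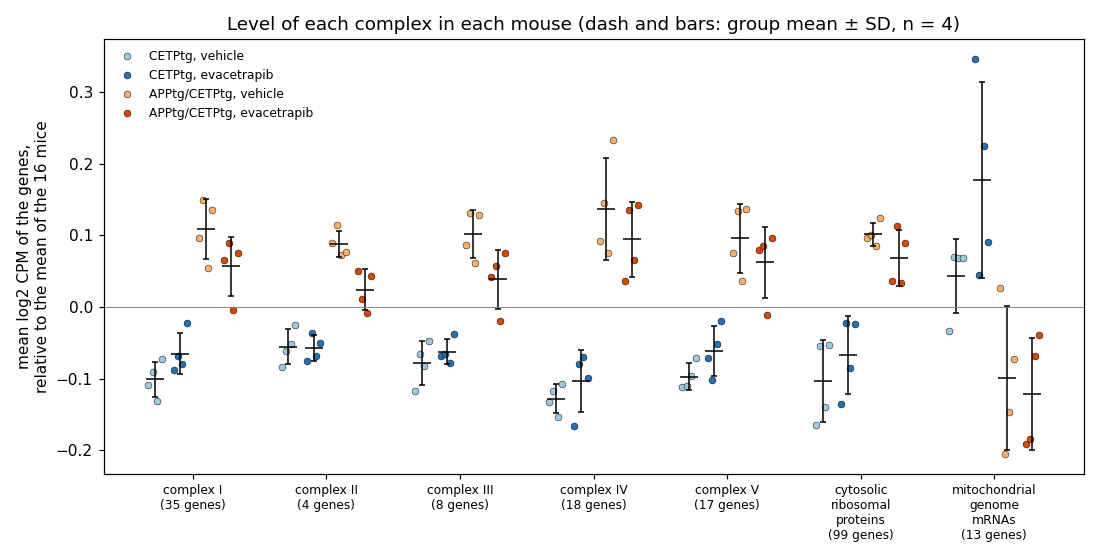
Level of each complex in each mouse (vertical axis, mean log2 CPM of its genes relative to the mean of the 16 mice), with 99 cytosolic ribosomal protein mRNAs and 13 mRNAs of the mitochondrial genome for comparison. Points are mice, dashes and bars the group mean ± SD (n = 4). In all 5 complexes the 8 APPtg/CETPtg mice sit above the 8 CETPtg mice, as the ribosomal protein mRNAs do, while the mitochondrial genome's mRNAs sit lower on average in APPtg/CETPtg mice, with overlap.

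In complex I, 26 of 35 tested members were called, with a median log2 fold change of 0.16. The 7 core subunits, which carry the NADH site, the iron-sulfur clusters and the ubiquinone site, differed less in level than the 28 accessory subunits, which surround the core and are needed for assembly, with 0.08 against 0.19 on the log2 scale. This gap between core and accessory subunits was not tested. Ndufb9, an accessory subunit of the membrane arm (chromosome 15, 58933756 to 58939488, GRCm38), had 96.5, 101.5 and 110.7 CPM as lowest, median and highest value in CETPtg mice and 118.9, 125.5 and 135.9 CPM in APPtg/CETPtg mice. The groups did not overlap, and the log2 fold change was 0.30 (SE 0.03, adjusted p = 1.77e-05). Ndufa3, Ndufb2 and Ndufa13, further accessory subunits, rose by 0.29, 0.29 and 0.28 on the log2 scale, each with an adjusted p of at most 0.00011.

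The core subunit Ndufs1, which holds several of the iron-sulfur clusters, had nearly equal levels in both genotypes. It measured 146.3, 137.0, 141.5 and 138.8 CPM in vehicle-treated CETPtg mice, 143.4, 131.0, 130.7 and 128.3 CPM in evacetrapib-treated CETPtg mice, 144.5, 145.3, 145.8 and 136.6 CPM in vehicle-treated APPtg/CETPtg mice and 130.4, 135.6, 126.8 and 126.7 CPM in evacetrapib-treated APPtg/CETPtg mice. The genotypes overlapped fully and the log2 fold change was -0.01 (SE 0.03, adjusted p = 0.891). Among the other core subunits, Ndufv1, which binds NADH, rose by 0.15 (adjusted p = 0.00147). Ndufs8, Ndufs7, Ndufv2 and Ndufs3 had log2 fold changes of 0.12, 0.09, 0.08 and 0.04 and did not pass, with Ndufs8 just outside the threshold at an adjusted p of 0.0569. Other called members of complex I were Ndufa1, Ndufa2, Ndufa7, Ndufa8, Ndufa9, Ndufa11, Ndufa12, Ndufb3 to Ndufb8, Ndufb10, Ndufb11, Ndufc1, Ndufc2, Ndufs5, Ndufs6 and Ndufv3, all accessory subunits, with log2 fold changes of 0.11 to 0.34.

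Complex II, the only complex without a mitochondrially encoded subunit, had 3 of 4 members called. Sdhb, its iron-sulfur subunit, measured 102.6, 104.4, 99.7 and 110.7 CPM in vehicle-treated CETPtg mice and 102.3, 110.8, 108.3 and 112.4 CPM in evacetrapib-treated CETPtg mice. The APPtg/CETPtg mice had 125.3, 132.8, 121.8 and 127.4 CPM with vehicle and 124.0, 123.5, 118.7 and 121.1 CPM with evacetrapib. All 8 APPtg/CETPtg mice lay above all CETPtg mice, and the log2 fold change was 0.22 (SE 0.03, adjusted p = 0.00019). The membrane anchors Sdhd and Sdhc rose by 0.11 (adjusted p = 0.0189) and 0.09 (adjusted p = 0.0414). Sdha, the subunit that oxidises succinate, ranged from 402.4 to 430.0 CPM in CETPtg mice and from 413.6 to 450.0 CPM in APPtg/CETPtg mice and did not pass (log2 fold change 0.03, adjusted p = 0.564).

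In complex III 6 of 8 members were called, with a median log2 fold change of 0.14. Uqcr11, a small membrane subunit, measured 68.5, 72.3, 71.1 and 73.6 CPM in vehicle-treated CETPtg mice and 68.3, 77.9, 76.4 and 77.3 CPM in evacetrapib-treated CETPtg mice. The APPtg/CETPtg mice had 91.7, 97.5, 87.0 and 98.8 CPM with vehicle and 91.9, 95.7, 87.6 and 98.9 CPM with evacetrapib. The lowest APPtg/CETPtg mouse stood well above the highest CETPtg mouse, and the log2 fold change was 0.36 (SE 0.04, adjusted p = 1.01e-05). Uqcrq, Uqcr10 and Uqcrh, also small subunits, rose by 0.20, 0.18 and 0.15, and the large matrix-side core proteins Uqcrc1 and Uqcrc2 by 0.12 and 0.11. Uqcrfs1, the Rieske iron-sulfur protein that passes electrons to cytochrome c1, had a log2 fold change of 0.07 (adjusted p = 0.14) and Uqcrb, a small subunit near the ubiquinone site, one of -0.06 (adjusted p = 0.405).

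Complex IV had 13 of 18 members called and a median of 0.17. Cox7c, a small membrane subunit (chromosome 13, 86044816 to 86046904), measured 62.5, 64.8, 66.5 and 62.8 CPM in vehicle-treated CETPtg mice and 65.4, 63.9, 72.1 and 73.0 CPM in evacetrapib-treated CETPtg mice. The values in APPtg/CETPtg mice were 87.5, 91.3, 85.9 and 87.7 CPM with vehicle and 84.9, 89.1, 77.7 and 91.8 CPM with evacetrapib. The genotypes did not overlap, and the log2 fold change of 0.39 (SE 0.04, adjusted p = 7.08e-06) had the smallest p of any member. Cox7a2l rose by 0.24, Cox8a by 0.24 and Cox6b1 by 0.22.

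Cox4i1, which binds ATP as part of the control of the enzyme, had 411.6, 452.4 and 477.4 CPM as lowest, median and highest value in CETPtg mice and 471.8, 517.8 and 525.1 CPM in APPtg/CETPtg mice. A small overlap remained, and the log2 fold change was 0.19 (adjusted p = 0.00103). Cox5b, Cox6a1, Cox6c, Cox7a2 and Ndufa4 rose by 0.14, 0.16, 0.18, 0.17 and 0.11, while Cox5a and Cox7b had log2 fold changes of 0.05 and 0.10 and did not pass. The largest log2 fold changes belonged to members with few reads. Cox6c2, a single-exon gene annotated as a processed pseudogene, had 3 to 21 counts per mouse and a log2 fold change of 1.18 (SE 0.302, adjusted p = 0.0102). Cox7a1, the muscle isoform, had 0.59 (adjusted p = 0.026) and Ndufa4l2, which is known to be induced by low oxygen, 0.41 (adjusted p = 0.0112). Cox6a2, a muscle isoform that parvalbumin interneurons also use, was one of the 3 members with a negative value (-0.11, adjusted p = 0.507). Reads of near-identical copies can be split between loci, so the values of Cox6c2 are uncertain.

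In ATP synthase 11 of 17 members were called, with a median of 0.17. The largest subunits were not among them. Atp5a1 and Atp5b, the alpha and beta subunits of the head, ranged from 852.6 to 923.4 and from 1022.6 to 1113.3 CPM in CETPtg mice and from 858.0 to 975.8 and from 1080.8 to 1277.0 CPM in APPtg/CETPtg mice, so that both overlapped. Their log2 fold changes were 0.02 (adjusted p = 0.661) and 0.08 (adjusted p = 0.102), and the gamma subunit Atp5c1, the central shaft, had 0.07 (adjusted p = 0.172).

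Atp5j2, the f subunit of the membrane part, measured 86.6, 86.8, 77.8 and 87.4 CPM in vehicle-treated CETPtg mice and 88.9, 84.2, 98.2 and 90.6 CPM in evacetrapib-treated CETPtg mice. With vehicle the APPtg/CETPtg mice had 103.1, 107.3, 99.1 and 120.7 CPM, and with evacetrapib 118.4, 121.6, 99.9 and 121.6 CPM. The lowest APPtg/CETPtg mouse lay just above the highest CETPtg mouse, and the log2 fold change was 0.35 (SE 0.05, adjusted p = 0.000112). Atp5e, the epsilon subunit at the foot of the shaft, measured 58.7, 60.7, 60.5 and 63.9 CPM in vehicle-treated CETPtg mice and 58.3, 62.0, 64.9 and 64.5 CPM in evacetrapib-treated CETPtg mice, against 70.8, 78.0, 64.6 and 84.5 CPM and 74.7, 85.8, 72.7 and 81.4 CPM in the corresponding APPtg/CETPtg mice. Here 1 vehicle-treated APPtg/CETPtg mouse fell within the CETPtg range, and the log2 fold change was 0.31 (SE 0.05, adjusted p = 0.000322). Of the 3 genes for the c subunit, which encode the same mature protein, Atp5g2 and Atp5g1 rose by 0.22 and 0.18 while Atp5g3 had 0.07 (adjusted p = 0.25). Atp5d, Atp5h, Atp5j, Atp5k, Atp5l, Atp5mpl and Atp5o made up the rest of the called members, at 0.14 to 0.22.

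**Figure D2:**
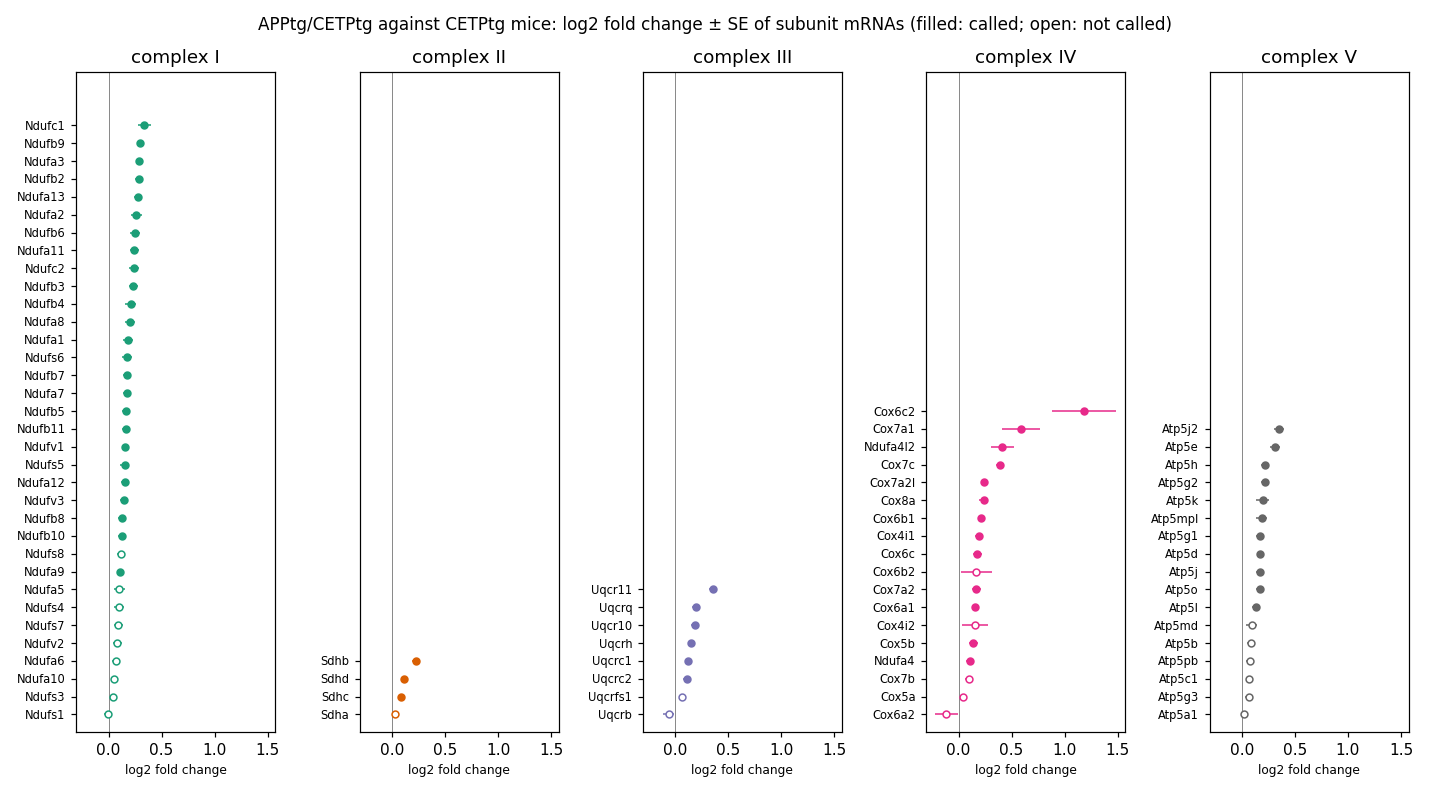
Log2 fold change ± SE of tested subunit mRNAs in APPtg/CETPtg against CETPtg mice (horizontal axis, 8 mice per genotype), by complex. Filled points were called and open points were not; all points except those of Ndufs1, Uqcrb and Cox6a2 lie right of 0, and Ndufs1, Sdha, Uqcrb, Cox6a2 and Atp5a1 have the lowest value of their complex.

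When each mouse was left out in turn, 49 to 59 members were called, and 47 of the 59 were called in every fit that tested them. Cox6c2 was tested in 12 of the 16 fits. The other 12 lost the call in at least 1 fit. Among these, Sdhc kept it in 1 of 16 fits, Ndufa4 in 4, Uqcrc2 in 6, Ndufb10 in 8, Atp5k in 10, Ndufs5 in 11, Cox5b and Cox7a1 in 13, Sdhd and Ndufb8 in 14 and Ndufa9 in 15. Of the tested members, 12 overlap an annotated gene on the same strand and 30 one on the opposite strand, such as Ndufa13, which overlaps Yjefn3 on the same strand and Tssk6 on the other. The strand setting of the counting was not given in the sources used here, so reads of such neighbours may be included.

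Subunit mRNAs are short, and short mRNAs of other genes also differed between the genotypes. The longest annotated transcript had a median of 997 bases among the tested members and 3434 bases among 15071 other protein-coding genes. Across the 82 members the Spearman correlation of this length with the log2 fold change was -0.41, and across the other genes it was -0.46. Genes in one library share its depth and RNA quality, so these correlations are descriptions. Above 500 and up to 1000 bases, 81.6% of 38 members and 74.1% of 116 other genes with a mean log2 CPM of at least 5 were called higher. The corresponding shares above 1000 and up to 2000 bases were 58.3% of 24 members and 46.4% of 658 other genes, and above 2000 and up to 4000 bases 53.8% of 13 members and 18.1% of 2202 other genes. Above 4000 bases all 4 members were called, against 2.95% of 3185 other genes, but for these members, Ndufb2, Ndufb7, Atp5g1 and Atp5l, the protein-coding transcript of median length had 455 to 691 bases. In other members too this transcript was far shorter than the longest, as in Sdha (722 against 2900 bases), Ndufs1 (651 against 2661) and Uqcrc1 (486 against 2473). In some, such as Ndufb9 with 704 bases, both were the same. With that median transcript as length, members and other genes differed more, and these shares depend on which transcripts are annotated. Up to 500 bases 76.0% of 25 members and 24.3% of 284 other genes at this level were called higher, above 500 and up to 1000 bases 73.9% of 46 and 25.2% of 1371, and above 1000 and up to 2000 bases 60% of 10 and 22.6% of 1222. The Spearman correlations were then -0.27 across members and -0.29 across other genes.

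After each mouse's trend with transcript length and GC content was taken out, a step chosen after the data were seen, fewer members were called. With the longest transcript as length, 20 members were called, 18 of them higher and Ndufs3 and Uqcrb lower, the median log2 fold change was 0.04 and 60 members were positive, while 5.7% of all genes were called in either direction. With the median protein-coding transcript, 37 members were called, all higher, the median was 0.10 and 75 were positive, against 10.2% of all genes. For some members that transcript is far shorter than the longest, and which transcripts these brains used was not measured. Of the 59 members, 14 were called under both. These were Ndufa3, Ndufa13, Ndufb2, Ndufb3, Ndufb5, Ndufb9 and Ndufc1 of complex I, Sdhb of complex II, Uqcr11 of complex III, Cox7a2l and Cox7c of complex IV, and Atp5e, Atp5j2 and Atp5l of ATP synthase. What made short mRNAs differ between the genotypes was not tested.

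**Figure D3:**
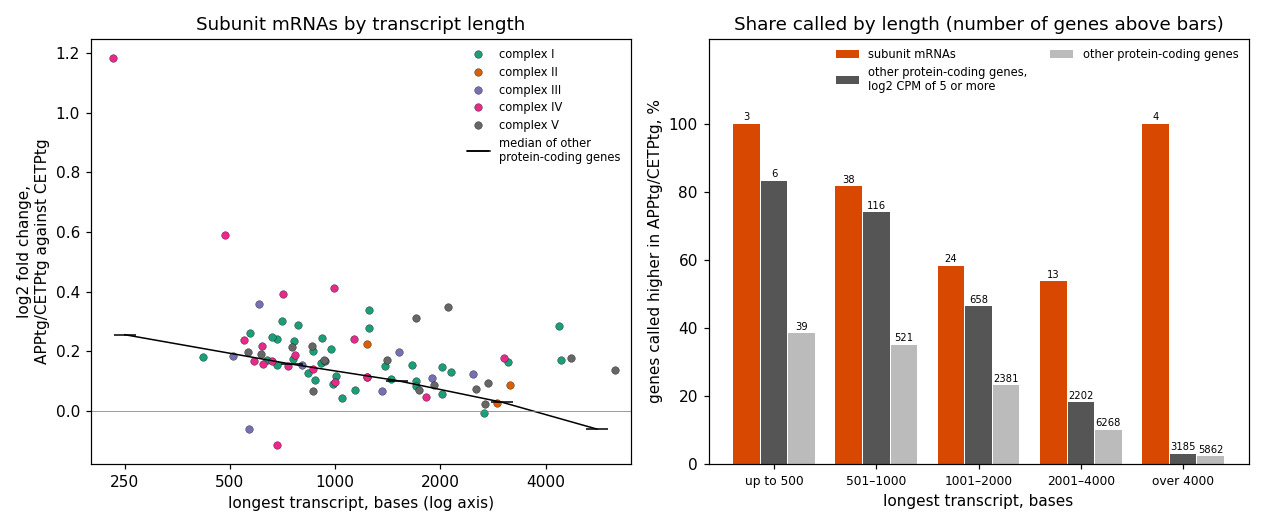
Left, log2 fold change of subunit mRNAs in APPtg/CETPtg against CETPtg mice by longest transcript (log axis, bases), with the median of other protein-coding genes in 5 length classes as a black line. Right, the share of genes called higher (%) in each class for subunit mRNAs, other protein-coding genes with a log2 CPM of at least 5, and all other protein-coding genes, with the number of genes above each bar; shares fall with length up to 4000 bases in all 3 sets, from 81.6% to 53.8% in subunit mRNAs from the class up to 1000 bases to the class up to 4000 bases.

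The genotypes were also compared within each treatment, a choice made after the data were seen. Among vehicle-treated mice 46 members were called, all higher in APPtg/CETPtg mice, with a median log2 fold change of 0.20, where 5.98% of all genes were called higher. Among evacetrapib-treated mice 11 members were called, all higher, with a median of 0.11, where 1.27% of all genes were called higher. These 11, which were also called among vehicle-treated mice, were Ndufa3, Ndufa13, Ndufb2, Ndufb9, Sdhb, Uqcr11, Cox6b1, Cox7a2l, Cox7c, Atp5e and Atp5j2. The difference between the treatments in this respect is the interaction given below, in which no member passed.

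The mRNAs encoded by the mitochondrial genome, which supply the core of complexes I, III and IV and part of ATP synthase, moved mostly the other way. Of 13, 9 were called lower and 2 higher in APPtg/CETPtg mice, at a median of -0.32 on the log2 scale. Of all genes tested 17.7% were called in either direction. Their summed CPM ranged from 29155.1 to 37664.2 in CETPtg and from 24154.3 to 29294.6 in APPtg/CETPtg mice, which overlapped slightly. mt-Nd4 fell by 0.42 on the log2 scale (adjusted p = 2.54e-05), mt-Cytb by 0.30 (adjusted p = 0.00117), mt-Co1 by 0.27 (adjusted p = 0.00266) and mt-Atp6 by 0.41 (adjusted p = 0.000743). mt-Nd4l and mt-Nd3 rose by 0.93 and 0.40, and mt-Nd6 and mt-Co3 did not pass. Few reads were counted of mt-Nd4l (141 to 738 per mouse), mt-Nd3 (57 to 182) and also mt-Atp6 (423 to 1213), against 206789 to 651853 of mt-Co1. mt-Nd4l overlaps mt-Nd4, and mt-Atp8 overlaps mt-Atp6, so their reads cannot be assigned with certainty. The mitochondrial genome is read as long joint transcripts, and poly(A) selection, which was used here, recovers its mRNAs by their short tails.

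Genes that act around the chain were called in part, where 17.7% of all genes tested were called in either direction. Of 45 tested assembly factors 14 were higher and 1 lower, with a median log2 fold change of 0.09. Uqcc2, needed to build complex III, rose by 0.34, Ndufaf8 of complex I assembly by 0.29, Pet100 of complex IV assembly by 0.26 and Sdhaf1 of complex II assembly by 0.24, while Cox17, a copper chaperone for complex IV, fell by 0.14. Cyc1, the cytochrome c1 of complex III that the symbol rule leaves out, rose by 0.20 (adjusted p = 0.000381), whereas Ndufab1, Cycs and the ATP synthase inhibitor Atpif1 had 0.07, 0.09 and 0.07 and did not pass. In the tricarboxylic acid cycle, which feeds the chain, 3 of 13 genes passed, all higher (Idh3b 0.18, Idh3g 0.14, Fh1 0.10). Among 11 regulators of mitochondrial genes Esrra, which binds the ERR element, rose by 0.18, while Ppargc1a, the coactivator of mitochondrial biogenesis, and Gabpa, the GABP subunit that binds the ETS core, fell by 0.17 and 0.16. Nrf1 and Tfam had log2 fold changes of -0.03 and -0.01 and did not pass. Cytosolic ribosomal protein mRNAs rose in 70 and fell in 2 of 99 genes, with a median of 0.18.

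Some markers of brain cells were called between the genotypes, where 17.7% of all genes tested were called (1740 higher and 1559 lower). Of 6 oligodendrocyte markers 3 were lower and none higher (among them Mbp, -0.20, and Mobp, -0.23), with a summed level of 4227.9 to 5097.0 CPM in CETPtg and 3340.5 to 4567.9 CPM in APPtg/CETPtg mice. Of 6 neuronal markers 1 was called higher (Stmn2, 0.14), while the list leaned lower, with 2 positive values and a median log2 fold change of -0.06. The summed levels were 5844.8 to 6942.1 CPM in CETPtg and 5652.7 to 6150.4 CPM in APPtg/CETPtg mice. Lower were also 1 of 5 parvalbumin interneuron markers (Erbb4, -0.25), 1 of 5 astrocyte markers (Gja1, -0.20) and 1 of 5 endothelial markers, and 2 of 5 microglial markers were higher. Cidea, of the brown fat list, was higher by 0.50 (adjusted p = 0.0176), and the list's summed level was 1.35 to 2.52 CPM in CETPtg and 2.09 to 3.5 CPM in APPtg/CETPtg mice. No marker passed in the lists for smooth muscle and pericytes, choroid plexus, blood or muscle. The part of these cell types in the subunit mRNAs was not tested.

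Evacetrapib left no member past the threshold. With the mice of both genotypes pooled and the genotype difference modelled, 0 of 82 members were called by edgeR, where 0.0107% of all genes (2 genes) were called. The median log2 fold change of the members was -0.001, 39 were positive and 3 had an unadjusted p below 0.05, as had 1472 of all 18609 genes. DESeq2 called 59 genes (0.317%) and limma-voom 2, in both cases with 0 members. Ndufs1 had the smallest p, with a log2 fold change of -0.11 (SE 0.03, adjusted p = 0.317), and the 4 that followed were Atp5a1 at -0.08, Ndufb2 at 0.09, Atp5j2 at 0.10 and Sdhd at -0.06. Of the mitochondrial genome's mRNAs, assembly factors, regulators and tricarboxylic acid cycle genes, none passed in any comparison of treatments. Among 5 markers of smooth muscle and pericytes Myh11 rose by 0.56 with evacetrapib (adjusted p = 0.0193), and the list's median was 0.48. Ndufa4l2 and Cox4i2, isoforms known from such cells, had log2 fold changes of 0.10 and 0.02 and did not pass.

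The members leaned in opposite directions in the 2 genotypes, with differences too small to pass. In CETPtg mice edgeR, DESeq2 and limma-voom called 0 members, where 0% of all genes were called by edgeR, and 1 member had an unadjusted p below 0.05, as had 1079 genes. The median log2 fold change was 0.04 and 65 of 82 members were positive, and with the trend in longest transcript length and GC content taken out these were 0.01 and 54. Ndufb4, an accessory subunit of complex I, measured 31.8, 30.8, 29.1 and 29.5 CPM with vehicle and 33.6, 33.1, 30.3 and 36.3 CPM with evacetrapib, which overlapped (log2 fold change 0.14, adjusted p = 0.837). Cox7a2l, Atp5g1, Ndufa8 and Ndufs1 followed in order of p, at 0.09, 0.09, 0.13 and -0.08.

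In APPtg/CETPtg mice 0 members were called by edgeR, DESeq2 or limma-voom, where 0.043% of all genes (8 genes) were called by edgeR, 0.392% (73 genes) by DESeq2 and 0.0376% (7 genes) by limma-voom. The median log2 fold change was -0.05, 68 members were negative, and 9 members had an unadjusted p below 0.05, as had 1677 genes. All 8 members of complex III and all 4 of complex II were negative. Ndufa5, an accessory subunit of the hydrophilic arm, measured 41.6, 42.2, 38.6 and 44.6 CPM with vehicle and 37.6, 38.7, 32.0 and 35.9 CPM with evacetrapib, and overlapped by a narrow margin (log2 fold change -0.21, SE 0.06, adjusted p = 0.289). Ndufs1, Cox5a, Cox6a2 and Atp5a1 followed, at -0.14, -0.14, -0.41 and -0.12. Cox6a2 had 5.94, 5.0, 5.97 and 6.02 CPM with vehicle and 3.36, 4.59, 5.58 and 3.81 CPM with evacetrapib, where 1 evacetrapib-treated mouse lay within the vehicle range.

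The difference between the 2 treatment effects was tested as an interaction. No member was called by edgeR, where 0% of all genes were called, and the smallest adjusted p was 0.703. DESeq2 called 2 genes and limma-voom 0, with 0 members. An unadjusted p below 0.05 was found for 5 members and 1271 genes. The median difference of log2 fold changes, APPtg/CETPtg minus CETPtg, was -0.09, and 73 of 82 were negative, and with the same trend taken out the median was -0.04. Ndufa5 had -0.28, Ndufb4 -0.26, Atp5g1 -0.17, Cox5a -0.15 and Cox6a2 -0.42. The level over all members was 0.03 higher with evacetrapib in CETPtg mice and 0.05 lower in APPtg/CETPtg mice, against group SDs of 0.02 to 0.05. The level of ribosomal protein mRNAs differed by 0.04 and -0.03 in the same mice. The 2 effects do not share mice, but members in one library are not independent.

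**Figure D4:**
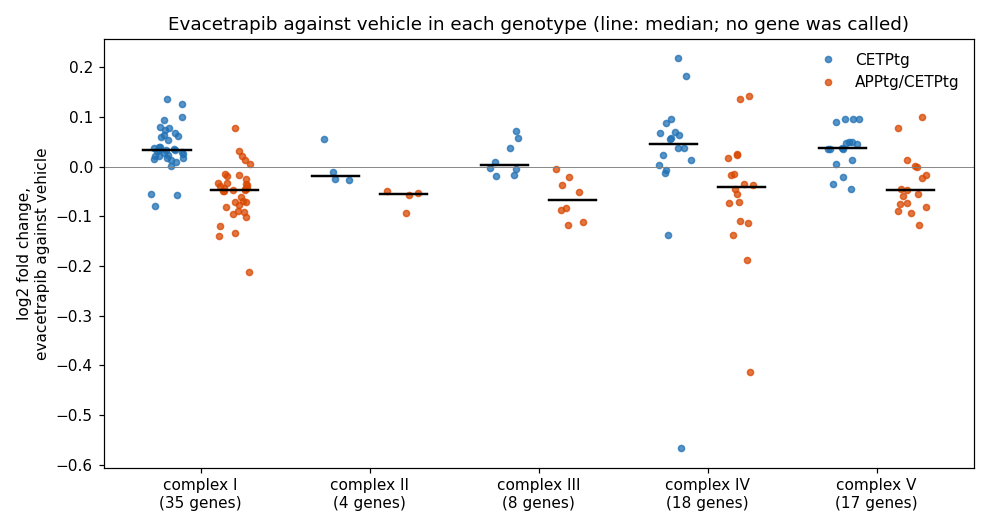
Log2 fold change of each tested subunit mRNA with evacetrapib against vehicle (vertical axis) in CETPtg and APPtg/CETPtg mice (4 mice per group), by complex. Points are genes and lines the median; no gene was called, and the medians over all 82 genes were 0.04 (CETPtg) and -0.05 (APPtg/CETPtg).

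To compare levels between genes, counts were divided by the length of all exons of a gene and scaled to the same sum in each mouse (TPM). The median member of a complex had 194.5 ± 10.1 TPM in complex I (SD over 16 mice), 208.3 ± 14.1 in complex II, 274.8 ± 11.7 in complex III, 253.9 ± 26 in complex IV and 170.5 ± 9.01 in complex V. Cox8a, a small subunit of complex IV, was highest at 1914.1 ± 192.0 TPM, before Cox6a1 at 1338.3 ± 89.3 and Cox4i1 at 1188.9 ± 92.5. The ranges of these 3 over the 16 mice overlapped only between Cox6a1 and Cox4i1. In ATP synthase the alpha and beta subunits Atp5a1 and Atp5b led with 1102.0 ± 48.2 and 994.0 ± 50.4 TPM, and their ranges overlapped. In complex I the values ran from 29.9 TPM for Ndufb2 to 425.4 TPM for Ndufb9, and 32 of 34 neighbours in the order overlapped. The value of Ndufb2 rests on 5628 bases in all exons and 4371 in the longest transcript, against 1031 and 704 for Ndufb9. Their protein-coding transcripts of median length had 455 and 704 bases. Before division by length Ndufb2 had 37.1 to 52.8 CPM and Ndufb9 96.5 to 135.9 CPM, so the width of this range depends on the length used. In complex II Sdha at 395.8 ± 10.4 TPM stood above Sdhd at 218.3 ± 12.7 and Sdhb at 198.2 ± 17.4, which overlapped, and above Sdhc at 103.3 ± 4.52. In complex III Uqcr10 led with 562.5 ± 43.7 TPM and Uqcrb was lowest with 153.0 ± 10.3. The order depended on the length measure. With the longest transcript in place of all exons Cox4i1 was highest at 1879.0 TPM, before Atp5b at 1714.8, Cox8a at 1680.2 and Cox6a1 at 1182.0.

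For subunits with tissue isoforms, one form dominated in brain. Per length, Cox4i2, the lung isoform, reached 0.675% ± 0.11 of Cox4i1 (SD, 16 mice), Cox6b2, the testis isoform, 0.725% ± 0.154 of Cox6b1, Cox7a1 1.83% ± 0.44 of Cox7a2, Ndufa4l2 1.92% ± 0.343 of Ndufa4 and Cox6a2 2.22% ± 0.372 of Cox6a1. The processed pseudogene Cox6c2 stood at 2.66% ± 1.34 of Cox6c. Per length of all exons, Atp5g3 made up 58.8% ± 2.02 of the mRNAs of the c subunit, Atp5g2 25.6% ± 1.53 and Atp5g1 15.6% ± 0.72. By this length the order of these 3 was the same in every mouse, with ranges of 56.0% to 64.2%, 21.5% to 27.9% and 14.2% to 16.7%. With the longest transcript as length their mean levels kept this order, at 693.0, 265.5 and 76.0 TPM, but the gap between Atp5g2 and Atp5g1 was wider. Atp5g1 is long by both measures, with 4912 bases in all exons and 4715 in the longest transcript, against 1675 and 753 for Atp5g2. Their protein-coding transcripts of median length had 691 and 635 bases. Before division by length Atp5g1 was higher, at 106.1 to 139.2 CPM against 54.8 to 76.6 CPM. The order of Atp5g2 and Atp5g1 therefore rests on the length used, and the longest transcript could not settle it.

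**Figure D5:**
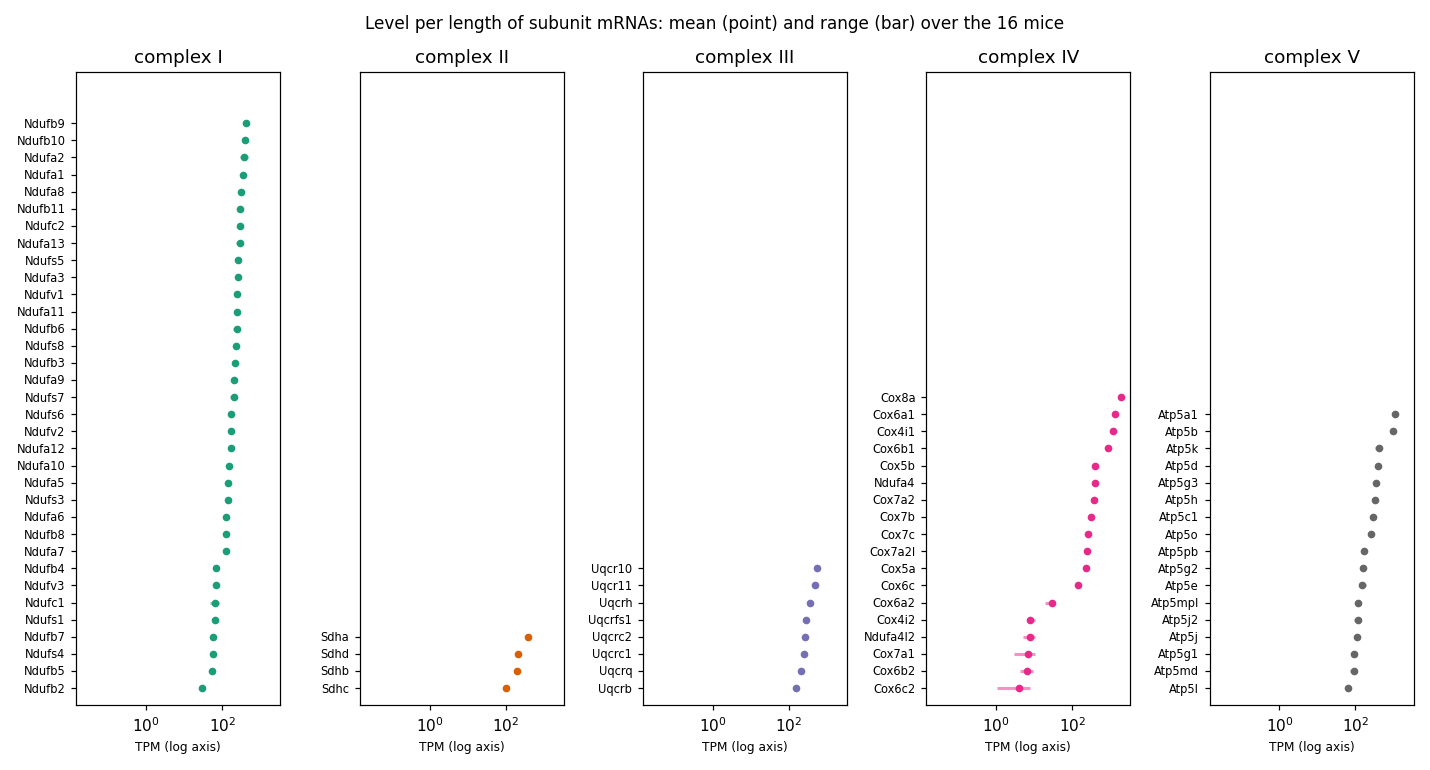
Level per length of tested subunit mRNAs (horizontal axis, TPM, log axis), by complex. Points are means and bars the range over 16 mice; Cox8a is highest at 1914.1 TPM, while Cox4i1 would lead with the longest transcript as length, and the tissue isoforms Cox6a2, Cox4i2, Ndufa4l2, Cox7a1 and Cox6b2 and the processed pseudogene Cox6c2 lie far below the other members of complex IV.

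The 7 members that were not tested had low counts. Cox7b2, Cox8b and Cox8c, the isoforms of testis or muscle, had at most 7, 17 and 1 counts in a mouse, Ndufa11b, Ndufb4c and Ndufs6b, annotated as processed pseudogenes, at most 4, 6 and 8, and a second identifier for Atp5o 0 in every mouse, which allows at most 3 counts of each library's total and covers counting error only. Of 13 rows that were left out for -ps in the symbol, 8 had enough counts. Ndufb1-ps, with 23.8 ± 1.91 CPM in CETPtg and 26.3 ± 1.94 CPM in APPtg/CETPtg mice (SD, n = 8), had a log2 fold change of 0.15 and did not pass (adjusted p = 0.0617). Ndufs5-ps and Ndufa12-ps, at 1 to 2 CPM, rose by 0.88 (adjusted p = 0.0015) and 0.62 (adjusted p = 0.0439), and reads of such copies cannot be separated with certainty from those of Ndufs5 and Ndufa12.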

How the data were processed

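Bulk brain poly(A) RNA of 16 mice was sequenced from directional libraries. Per the methods, the authors trimmed reads with Trimmomatic 0.39, aligned them to mm10 with STAR 2.7.8a, marked duplicates with Picard 2.0.1 and ran HTSeq-count for reads per gene. Raw counts were deposited, and the counting annotation was not given in the sources used here. Columns were matched to mice by their labels. The members and gene lists were chosen with earlier results of these data known. For 18609 genes that reached 10 counts in 4 or more mice, TMM-normalized counts were tested two-sided by quasi-likelihood in edgeR 4.0.16 (R 4.3.3), with Benjamini-Hochberg adjustment. The treatment over all mice was tested with a genotype term, the genotype with a treatment term, and effects within a genotype and their difference in a 4-group model. The labels do not pair mice, and p-values measure the spread between these mice. Named genes are the 5 members with the smallest p in each of 5 comparisons, every called member, and subunits set by role (core subunits, isoform pairs, c subunits). Alternatives were DESeq2 1.42.0, limma-voom 3.58.1, other size factors, filters, thresholds and subsets, libraries thinned to equal depth and each mouse left out; block, trend and within-treatment fits were added after the data were seen. Some genes enter the counts and medians but are not reported here by name. Steps were tested on simulated data. Depth was 21391335 to 55453789 counts per mouse.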

Additional observations from a re-analysis of the deposited data

Results flagged for a closer look

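Dixon's test compared the highest and lowest mouse of each group of 4 with the others, for 6 level measures and 20 genes (104 series), and marked 9 values, where chance marks about 1 in 20. The level of complex V was -0.0114 in evacetrapib-treated APPtg/CETPtg mouse G, against 0.0801 to 0.0966 in the other 3. The same mouse had the low Atp5j2 value of 99.9 CPM (others 118.4 to 121.6), and vehicle-treated CETPtg mouse S3 that of 77.8 CPM (others 86.6 to 87.4). Vehicle-treated APPtg/CETPtg mouse S8, the most deeply sequenced, was low in Ndufs1 at 136.6 CPM (others 144.5 to 145.8) and in Ndufb4 at 35.5 CPM (others 39.0 to 39.3). Evacetrapib-treated CETPtg mouse A was low in Uqcr11 at 68.3 CPM (others 76.4 to 77.9), mouse C high in Ndufa3 at 63.3 CPM (others 60.3 to 60.5) and mouse D low in Cox7a1 at 0.397 CPM (others 0.797 to 0.869). Cox6a2 was 5.0 CPM in vehicle-treated APPtg/CETPtg mouse S6 (others 5.94 to 6.02).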

How the results depend on the processing

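With the trend in length and GC content taken out, 20 members (longest transcript) or 37 (median coding transcript) were called in place of 59, the median log2 fold change was 0.0437 or 0.1006, and under the first the interaction's median was -0.0432 and that of evacetrapib in CETPtg mice 0.0135. Under the longest transcript 8 members changed sign, among them Ndufb10 at -0.0394, Ndufs3 at -0.1056, Uqcr10 at -0.0174, Cox6a1 at -0.0342, Cox7a2 at -0.0084, Atp5k at -0.0055 and Atp5mpl at -0.002. The genotype's median was 0.2048 among vehicle-treated mice, and 11 members were called among evacetrapib-treated mice, with a median of 0.1072; the cause was not tested. Leaving out 1 mouse gave 49 to 59 called members and medians of 0.1404 to 0.1658 for the genotype, and 0 called members with medians of -0.0128 to 0.0088 for evacetrapib over all mice, 0.0238 to 0.0561 in CETPtg mice, -0.0665 to -0.0363 in APPtg/CETPtg mice and -0.1025 to -0.0651 for the interaction. The labels do not say whether the numbers 1 to 4 in the header pair mice. Of 24 pairs with the same number 1 correlated above 0.1 (range -0.203 to 0.173), which cannot settle this. With the numbers as a replicate block 60 members were called for the genotype and 0 in the other comparisons. With the longest transcript as length the median TPM was 212.5, 225.6, 304.3 and 267.3 in complexes I, II, III and V. The other alternatives, among them DESeq2 (59 members) and limma-voom (59), kept the side of the threshold of each summary. Counts of 21391335 to 55453789 per mouse limit members with few reads most, such as Cox6c2 with 3 to 21 counts per mouse.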
